A study of Mus musculus with 4 samples.

Results

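Classical glucocorticoid-induced genes were followed one by one in EPH-4 cells, a non-malignant mouse mammary epithelial cell line, with and without depletion of the glucocorticoid receptor (GR), the nuclear receptor encoded by Nr3c1. The 10 genes, Sgk1, Tsc22d3, Dusp1, Klf9, Zfp36, Errfi1, Mt1, Mt2, Zbtb16 and Ddit4, were chosen by name and not by a rule on their measured values, out of 28145 gene names on the array. Earlier results of these data were known when they were chosen. The groups were 2 stable lines, both selected with and kept in 2 µg/ml puromycin in serum-free medium: EV-50, which carries the empty vector and has normal GR, and shGR-19, which carries a vector for a short hairpin RNA against GR and is labelled as depleted of it. Each line is a single clonal isolate, no glucocorticoid was added to either, and each was measured on 2 one-colour Agilent Whole Mouse Genome arrays, labelled replicates 1 and 2. Nothing in the labels says that the duplicates came from separate cultures, so the p-values below measure only the spread between these arrays, which may be technical. Zbtb16, a zinc finger transcription factor, had no probe. The other 9 genes had 14 probes among 41172, of which 12 were well above background on all 4 arrays and were tested, and the second probes of Sgk1 and Zfp36 were well above background on none.

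Glucocorticoids bind GR in the cytoplasm, and the receptor then enters the nucleus and activates genes whose regulatory DNA holds a glucocorticoid response element (GRE), a palindrome of the half-site AGAACA. Many of the genes it induces restrain signalling: Dusp1 is a phosphatase of MAP kinases, Errfi1 an inhibitor of the EGF receptor, Tsc22d3 (also called GILZ) a leucine zipper protein that inhibits NF-κB and AP-1, Zfp36 (tristetraprolin) a protein that destabilises cytokine mRNAs, and Ddit4 (REDD1) an inhibitor of mTORC1. Sgk1 is a kinase that promotes ion transport and cell survival, and Klf9 is a transcription factor. Mt1 and Mt2 are metallothioneins, small cysteine-rich proteins that bind zinc, copper and cadmium, and they respond both to glucocorticoids and to metals, the latter through metal response elements (MREs) bound by Mtf1. None of these genes responds to glucocorticoids alone: Dusp1, Zfp36 and Errfi1 are also induced by growth factors, and Ddit4 by hypoxia and the stress factor Atf4.

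The promoter windows of the metallothionein genes are shown because their probes differed most between the arrays, and that of Sgk1 because it was the only window of the 10 genes with a full GRE palindrome. Each window is from RefSeq (GRCm38.p6), 5′ to 3′, and runs from 250 bases before a transcription start to 50 bases after it. RefSeq windows were found for 9 of the 10 genes, 17 windows in all, and none was found for Zbtb16. In the metallothionein windows the capitals mark the MRE core TGCNCNC on either strand.
Mt1, chr8:94178839-94179138, plus strand: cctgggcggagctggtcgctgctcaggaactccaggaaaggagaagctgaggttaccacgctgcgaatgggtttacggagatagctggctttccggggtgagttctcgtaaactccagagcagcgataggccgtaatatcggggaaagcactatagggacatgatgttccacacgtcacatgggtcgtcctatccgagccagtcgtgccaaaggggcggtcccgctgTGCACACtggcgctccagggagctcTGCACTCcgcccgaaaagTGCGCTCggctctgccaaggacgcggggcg
Mt2, chr8:94172368-94172667, plus strand: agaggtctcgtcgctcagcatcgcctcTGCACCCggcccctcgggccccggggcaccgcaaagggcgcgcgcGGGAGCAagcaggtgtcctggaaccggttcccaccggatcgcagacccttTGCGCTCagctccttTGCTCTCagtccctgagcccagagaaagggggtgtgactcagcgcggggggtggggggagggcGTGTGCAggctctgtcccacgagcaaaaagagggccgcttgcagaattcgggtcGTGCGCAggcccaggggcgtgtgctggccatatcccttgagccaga
Sgk1, alternative start, chr10:21993640-21993939, plus strand, with the GRE palindrome in capitals: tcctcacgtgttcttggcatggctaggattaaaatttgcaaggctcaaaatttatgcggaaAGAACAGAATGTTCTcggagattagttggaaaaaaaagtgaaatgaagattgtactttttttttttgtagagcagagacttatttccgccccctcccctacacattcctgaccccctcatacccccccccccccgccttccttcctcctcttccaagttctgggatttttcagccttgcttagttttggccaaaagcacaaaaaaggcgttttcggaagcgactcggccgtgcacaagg

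The Mt1 window held 3 matches to the MRE core and the Mt2 window 6, both strands counted. Those of Mt1 began 23 bases before the annotated start and at bases 3 and 21 counted from it. Those of Mt2 began from 223 bases before its start to base 5 counted from it. The counts depend on where the annotated start lies and describe these windows only. At least 3 matches stood in 7.1% of 32851 windows of the same length, and at least 6 in 0.225%. The palindrome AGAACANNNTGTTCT stood 189 bases before this start of Sgk1, 1 of 6 Sgk1 starts, and in 3 of all 32851 windows (0.00913%). The half-site AGAACA alone, which the palindrome contains on both strands, stood in 4 of the 17 windows of these genes, 3 of Sgk1 and 1 of Tsc22d3, and in 19% of all windows. A match is a description of the letters and not evidence of binding.

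The arrays have to be described before the genes, since the deposited sources differ. In the scanner files the receptor's own gene lay lower on both arrays labelled shGR-19 than on both labelled EV-50 for all 4 of its tested probes, but did not pass the test (limma adjusted p = 1.0). For example, the brightest Nr3c1 probe gave log2 levels, relative to the 75th percentile of each array, of 1.81 and 1.92 for EV-50 (always in the order of the replicate labels 1 and 2) and of 1.46 and -0.03 for shGR-19. Its difference was -1.15 ± 0.55 (SE; limma unadjusted p = 0.0967). Over the 4 probes the lines differed by -0.35 to -0.20 on the arrays labelled replicate 1 and by -1.95 to -1.47 on those labelled replicate 2. In the table of log2 values that the authors made from their arrays, the same probe was lower in shGR-19 by a log2 difference of -1.94 ± 0.048 (SE; limma, adjusted p = 0.00216). The scanner arrays labelled replicate 1 of both lines were nearly alike, with an SD of their log2 difference of 0.225 over 21173 probes detected on every array, whereas this SD was 0.616 for the duplicates of EV-50 and 0.705 for those of shGR-19. Across probes, the line difference of the value table correlated at 0.911 with the line difference of the replicate 2 scanner arrays and at 0.0431 with that of the replicate 1 scanner arrays. In the value table itself the SD between duplicates was 0.205 and 0.21. The labels of the scanner arrays are therefore quoted as labels only, and each of the 9 genes with a probe is given from both sources. The arrays had between 23290 and 27358 spots well above background. The sample labels name no slide, so only the scan position of the first spot of each array was used to order them. By that position the order was EV-50 replicate 1, shGR-19 replicate 1, EV-50 replicate 2 and shGR-19 replicate 2. The replicate label and the scan position therefore cannot be told apart.

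In the value table, 4 of the 9 genes were higher and 1 was lower in the GR-depleted line. Dusp1 was 2.78-fold higher, Mt2 1.78-fold, Zfp36 1.5-fold and Ddit4 1.48-fold, whereas Sgk1 was 1.76-fold lower, all at a limma adjusted p below 0.01. These are 5 of 12 tested probes, beside 11.6% of all 24439 tested probes called in either direction (5.53% higher and 6.04% lower). Dusp1 alone was past 2-fold as well, as were 4.26% of all probes. The remaining 7 probes, of Tsc22d3, Klf9, Errfi1 and Mt1, did not pass. In the scanner files 0 of the 12 probes were called, beside 0% of all tested probes, with 0 of the 12 at a limma unadjusted p below 0.05 (0.855% of all) or below 0.01 (0.151% of all) and adjusted p of 1.0. Without adjustment, 8 of the 12 probes had a limma p below 0.01 in the value table, beside 29.9% of all. The columns of the lines did not overlap there for 11 of 12 probes (71.9% of all), 7 higher in shGR-19 (36.6% of all) and 4 lower (35.3% of all). The scanner arrays did not overlap for 2 of 12 (17.9% of all), both higher (11.7% of all), and 0 were lower (6.14% of all). The median difference over the 12 probes in the value table was 0.41, beside 0.01 over all tested probes. All 5 calls in the value table were lost when any 1 of its 4 columns was left out, with limma adjusted p between 0.0311 and 0.0600, while the differences stayed between -0.85 and -0.78 for Sgk1, 1.37 and 1.58 for Dusp1, 0.79 and 0.88 for Mt2, 0.55 and 0.61 for Zfp36, and 0.53 and 0.60 for Ddit4. They were also lost when dim probes were kept in the fit (limma adjusted p between 0.0192 and 0.0299). That setting took the calls over all probes from 2828 to 43. Neither loss was particular to these genes. A change in the number of cells expressing a gene and one in its RNA per cell cannot be told apart in these cultures.

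**Figure D1:**
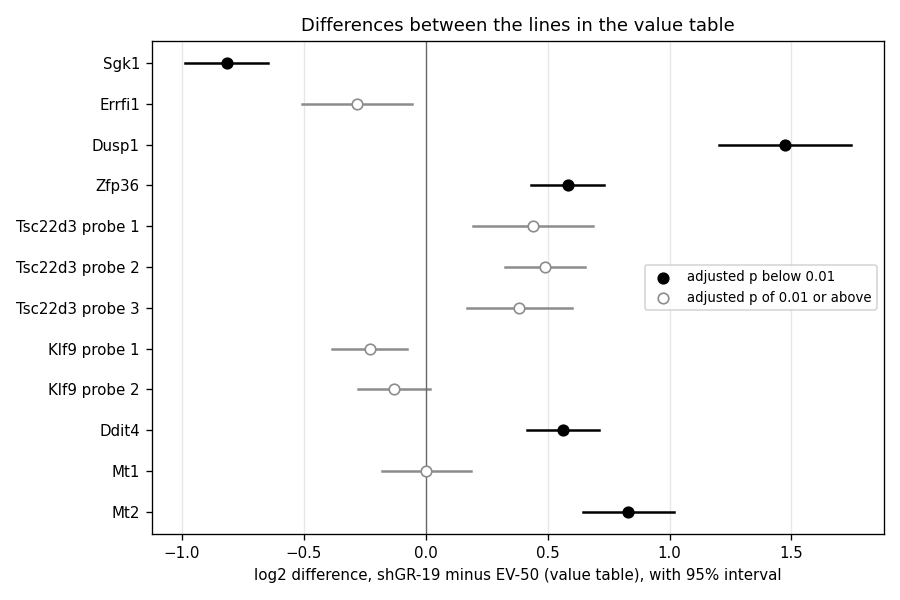
Differences in the value table, shGR-19 minus EV-50, on the log2 scale (horizontal axis) for each of the 12 tested probes (vertical axis), with 95% intervals from limma and filled points for an adjusted p below 0.01. Dusp1 lies farthest to the right at 1.47, Sgk1 is the only filled point to the left of 0 at -0.82, and Mt1 lies at 0.00.

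Sgk1, the serum- and glucocorticoid-regulated kinase, was the single gene of the 10 called lower after GR depletion. Its probe (mm9, chr10:21719390-21719449, plus strand) had scanner log2 levels of 3.89 and 2.70 under the EV-50 labels and of 3.90 and 1.99 under the shGR-19 labels. The arrays labelled replicate 1 were high and nearly equal, the array labelled shGR-19 replicate 2 was lowest, and the lines overlapped. The scanner difference was -0.35 ± 0.79 (SE), and it was -0.71 between the arrays labelled replicate 2 and 0.01 between those labelled replicate 1. In the value table the columns read 0.43 and 0.37 in EV-50 and -0.37 and -0.45 in shGR-19, without overlap, and the difference was -0.82 ± 0.058 (95% interval -0.99 to -0.64, limma adjusted p = 0.00581). The other Sgk1 probe (mm9, chr10:21618550-21618609) was not well above background on any array.

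Errfi1, the feedback inhibitor of the EGF receptor, did not pass the test. Its scanner log2 levels were 2.77 and 3.57 in EV-50 and 2.78 and 3.24 in shGR-19 for replicates 1 and 2, so that the arrays labelled replicate 1 were the lower ones in both lines and the lines overlapped. The value table difference was -0.28 ± 0.077 (SE, limma adjusted p = 0.0652).

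Dusp1, which dephosphorylates p38, JNK and ERK, had the largest value table difference of the 9 genes. Its scanner log2 levels were 0.00 and -2.58 for EV-50 and -0.19 and -1.49 for shGR-19. Both arrays labelled replicate 1 were high, both labelled replicate 2 were low, and the shGR-19 values lay between those of EV-50. The scanner difference of 0.45 ± 1.00 (SE) was smaller than this spread. Taken by replicate label, it was 1.09 for replicate 2 and -0.19 for replicate 1. In the value table the columns were -0.68 and -0.71 in EV-50 and 0.68 and 0.88 in shGR-19, which did not overlap, with a difference of 1.47 ± 0.092 (95% interval 1.20 to 1.74, limma adjusted p = 0.00486). A difference of at least that size was found for 2.64% of all tested probes. For this probe the array annotation places only 11 bases on the genome (mm9, chr17:26642526-26642536, minus strand).

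Zfp36, which binds AU-rich elements of mRNAs such as that of tumour necrosis factor, was one of a pair of genes whose scanner arrays did not overlap between lines. Its log2 levels were -1.0 and -1.64 for EV-50 and -0.88 and -0.78 for shGR-19. Both shGR-19 arrays were above both EV-50 arrays, as they were for 11.7% of all tested probes. The scanner difference was 0.49 ± 0.30 (SE, limma unadjusted p = 0.171, adjusted p = 1.0), and the value table difference 0.58 ± 0.052 (limma adjusted p = 0.00793) for this probe (mm9, chr7:29162132-29162191, minus strand). The second Zfp36 probe (mm9, chr7:29161940-29161999) gave no level above background.

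Tsc22d3, the GILZ gene, had 3 probes on the X chromosome (mm9, the brightest at chrX:137074393-137074452) that behaved alike. For the brightest, the scanner log2 levels were -1.53 and -0.15 in EV-50 and -1.34 and 0.41 in shGR-19, for replicates 1 and 2. For the second they were -2.04 and -0.76, then -1.85 and -0.23, and for the third -1.90 and -1.39, then -1.84 and -0.93. Unlike Sgk1 and Dusp1, these probes were lower on the arrays labelled replicate 1, by -1.38 (EV-50) and -1.74 (shGR-19) for the brightest probe. All 3 had value table differences above 0, of 0.44, 0.49 and 0.38, with limma adjusted p of 0.0312, 0.0116 and 0.0308, none of which passed.

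Klf9, a zinc finger factor of the Krüppel-like family, had a pair of tested probes on chromosome 19, and neither passed. The brighter gave scanner log2 levels of 1.5 and 0.94 in EV-50 and 1.51 and 0.72 in shGR-19, the other -0.06 and -0.54 in EV-50 and 0.06 and -0.59 in shGR-19. Both were higher on the arrays labelled replicate 1 and overlapped between lines. The value table differences were -0.23 ± 0.052 and -0.13 ± 0.050 (SE), with limma adjusted p of 0.0449 and 0.136.

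Ddit4, the mTORC1 inhibitor REDD1, had the steadiest signal of the 9 genes. The scanner log2 levels of its probe (mm9, chr10:59412486-59412545, minus strand) were 7.01 and 7.10 in EV-50 and 7.15 and 7.25 in shGR-19. All 4 arrays lay close together and the shGR-19 arrays were the higher ones, without overlap. The scanner difference was 0.14 ± 0.21 (SE, 95% interval -0.42 to 0.70), and it was 0.14 between the arrays of either replicate number. In the value table the same probe was higher in shGR-19 by 0.56 ± 0.051 (SE, limma adjusted p = 0.00803). Why this value differs from the 0.14 of the scanner arrays was not tested.

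**Figure D2:**
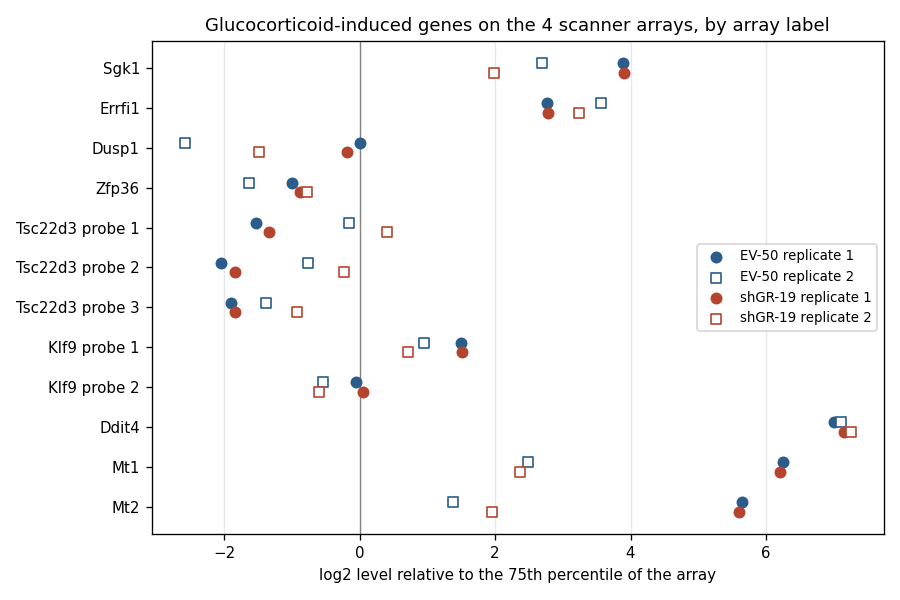
Scanner log2 level relative to the 75th percentile of each array (horizontal axis) of the 12 tested probes (vertical axis), with 1 point per array: circles for arrays labelled replicate 1, open squares for replicate 2, blue for EV-50 and red for shGR-19. Circles of both lines lie together for each gene, and for Mt1 they lie near 6.2 while both squares lie near 2.4.

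The metallothioneins gave the widest separation of the arrays, and it followed the replicate label, not the line. Mt1 had scanner log2 levels of 6.26 and 2.49 for EV-50 and of 6.21 and 2.36 for shGR-19. Mt2, its neighbour on chromosome 8, had levels of 5.64 and 1.38, then 5.60 and 1.95. For both genes the arrays labelled replicate 1 were far above those labelled replicate 2, and the lines overlapped. Mt1 was 13.6-fold higher on the array labelled replicate 1 within EV-50 and 14.4-fold within shGR-19, and Mt2 19.2-fold and 12.6-fold. Of the 24439 tested probes, 16 (0.0655%) were as far apart as Mt1, and 20 (0.0818%) as far as Mt2, in the same direction in both lines.

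Mt1 and Mt2 each had a separate probe, and the Mt1 signal was even over its spots. The probes were compared with each other only, and whether either also binds RNA of the other gene was not tested. Mt1 was printed 10 times on each array, and the SD of its log2 signal over these spots was between 0.0329 and 0.0468. The 60-base Mt1 probe (mm9, chr8:96704011-96704070, plus strand) is shown, in lower case without a marked motif, because it carries this measurement, and its longest run shared with the Mt2 probe (mm9, chr8:96697371-96697430, plus strand) was 5 bases.
Mt1 probe: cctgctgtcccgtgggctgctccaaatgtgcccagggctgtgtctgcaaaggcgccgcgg

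Between the lines the neighbouring metallothionein genes differed from each other in the value table. Mt2 had columns of -0.37 and -0.45 in EV-50 and 0.46 and 0.37 in shGR-19, and its difference was 0.83 ± 0.064 (95% interval 0.65 to 1.02, limma adjusted p = 0.00636). Mt1 had columns of 0.04 and -0.04 in EV-50 and 0.04 and -0.04 in shGR-19, and its difference was 0.00 ± 0.062 (95% interval -0.18 to 0.19, limma adjusted p = 0.969). The interval of Mt1 lies below that of Mt2, although the difference between the genes was not itself tested. In the scanner files the differences were 0.27 ± 1.91 for Mt2 and -0.08 ± 1.84 for Mt1, in each case far smaller than the spread between duplicates. Between the arrays labelled replicate 2 alone they were 0.57 and -0.12.

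Over all 12 probes the scanner arrays separated by replicate label more often than by line. Both differences between duplicates were larger in size than both differences between lines for 10 of 12 probes, beside 35.6% of all tested probes. Of these genes' probes, 6 had both arrays labelled replicate 1 above both labelled replicate 2, and 4 had both below (36.5% and 28.1% of all). The difference between the arrays labelled replicate 2 had the direction of the value table for 11 of 12 probes, with Mt1 as the exception. That between the arrays labelled replicate 1 had it for 5 of 12, with sizes from 0.01 to 0.20 throughout. Over 21173 probes detected on every array, the corresponding correlations with the value table were 0.911 and 0.0431. The share of all tested probes with the direction of the table was not counted, so these counts are not read as particular to these genes.

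**Figure D3:**
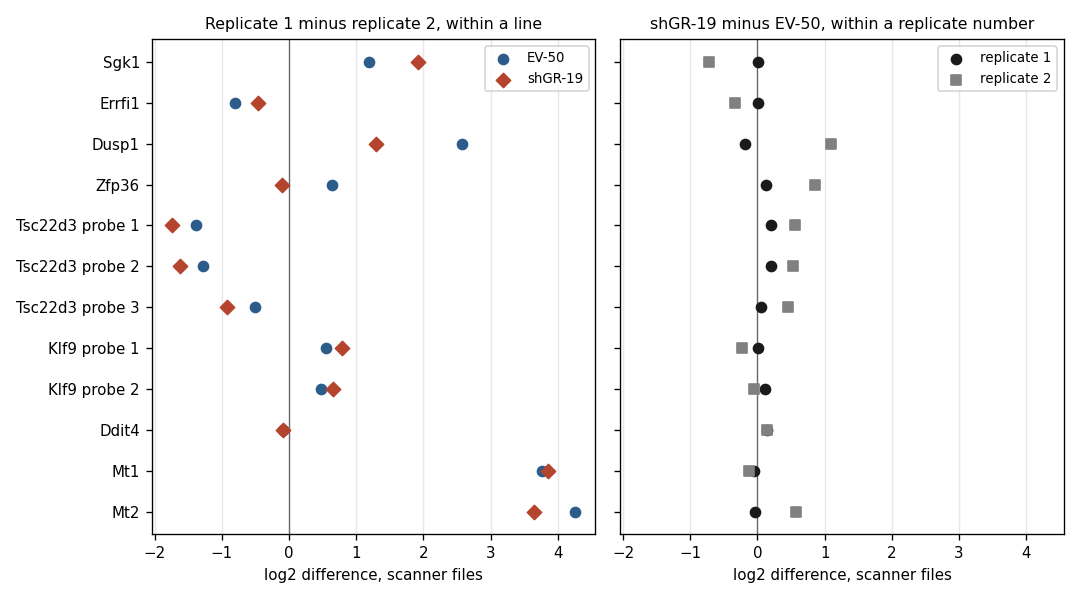
Log2 differences between scanner arrays for the 12 tested probes: replicate 1 minus replicate 2 within each line on the left, shGR-19 minus EV-50 within each replicate number on the right, on 1 shared scale. Mt1 and Mt2 reach 3.65 to 4.26 on the left, and on the right the points of the arrays labelled replicate 1 stay within 0.20 of 0.

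Genes of the metal and oxidative stress responses, to which the metallothioneins belong, were set beside them. Of the 8 genes, all tested, 0 were called in either source by limma, with 7 in the value table and 0 in the scanner files at an unadjusted p below 0.05 (48.4% and 0.855% of all tested probes), and the median value table difference was -0.18. Slc30a1, the zinc exporter that Mtf1 induces, was singled out after its values were seen: its scanner log2 levels were 0.63 and -2.90 for EV-50 and 0.66 and -4.07 for shGR-19. Slc39a10, a zinc importer, was singled out in the same way and ran in the opposite sense, with 0.41 and 2.18, then 0.39 and 2.77. Hmox1, heme oxygenase, also singled out afterwards, had 4.32 and 3.02, then 4.26 and 2.67. Their value table differences were -1.09, 0.40 and -0.43 (limma adjusted p = 0.0209, 0.0291 and 0.0135). The high metallothionein arrays were thus also the arrays with high Slc30a1 and low Slc39a10 signal, whichever line they were labelled as. Of all tested probes, 36.5% were higher and 28.1% lower on both arrays labelled replicate 1, so separation by label is not in itself particular to these genes. The median difference between the arrays labelled replicates 1 and 2 over the 8 genes was 0.84 for EV-50 and 1.03 for shGR-19, beside 0.03 and 0.06 over all tested probes.

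Other known glucocorticoid-induced genes were called in both directions in the value table, 4 higher and 2 lower of 20 tested among 24 listed (Pck1 had no probe, and Cdkn1c, Lcn2 and Mertk were too dim), beside 5.53% higher and 6.04% lower of all tested probes. Cebpd, a transcription factor of the C/EBP family, was higher by a log2 difference of 1.84, Scnn1a, a subunit of the epithelial sodium channel, by 1.12, Glul, glutamine synthetase, by 0.86, and Bcl6, a transcriptional repressor, by 0.84. Fam107a was lower by a difference of -2.06 and Anxa1, annexin A1, by -0.51. Among the 14 that did not pass were Fkbp5 (0.32, limma adjusted p = 0.287), Per1 (-0.17, adjusted p = 0.0863) and Nfkbia (-0.37, adjusted p = 0.0236), 3 genes often used as readouts of GR activity and named for that reason. The median over the list was -0.16. In the scanner files limma called 0 of the 20, with 0 at an unadjusted p below 0.05 (0.855% of all tested probes). Cebpd had levels of -0.67 and -0.80 in EV-50 and -0.57 and 1.01 in shGR-19. Fam107a had dim levels of -5.09 and -3.20 in EV-50 and of -4.02 and -3.66 in shGR-19, so that the shGR-19 arrays lay between those of EV-50 and did not show the difference of the table. Between the scanner arrays labelled replicate 2, the differences were 1.81 for Cebpd, 1.12 for Scnn1a, 0.74 for Glul, 0.79 for Bcl6, -0.46 for Fam107a and -0.50 for Anxa1.

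Close relatives of the 10 genes were called about as often as all probes, 2 of 19 tested, beside 11.6% of all probes. These were Dusp6, the phosphatase of ERK, with a value table difference of 1.20, and Zfp36l2, a relative of tristetraprolin, with 0.65, both higher in shGR-19. Of 9 tested immediate early genes, the first genes that growth factors switch on, 3 were higher and 0 lower: Fos by 1.21, Fosb by 0.88 and Ier2 by 0.56. Of 10 Atf4 and hypoxia genes, 2 were higher and 0 lower, Ddit3 (CHOP) by 1.27 and Trib3, a pseudokinase induced by Atf4, by 0.55. Of all tested probes, 5.53% were called higher and 6.04% lower. With lists this short, the directions of so few calls are not read as a trait of the lists. In the scanner files limma called 0 genes of these lists, with 1 of them, Ddit3, at an unadjusted p below 0.05 (0.855% of all tested probes). Between the scanner arrays labelled replicate 2, all 7 of these called genes were higher in shGR-19, by 0.48 (Trib3) to 1.23 (Fosb). All 7 were called from the value table, whose line differences correlated at 0.911 with those of the replicate 2 arrays. Their direction on those arrays is therefore not independent of the calls. Glul, Bcl6 and Ier2 lie outside the rule by which genes were named.

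**Figure D4:**
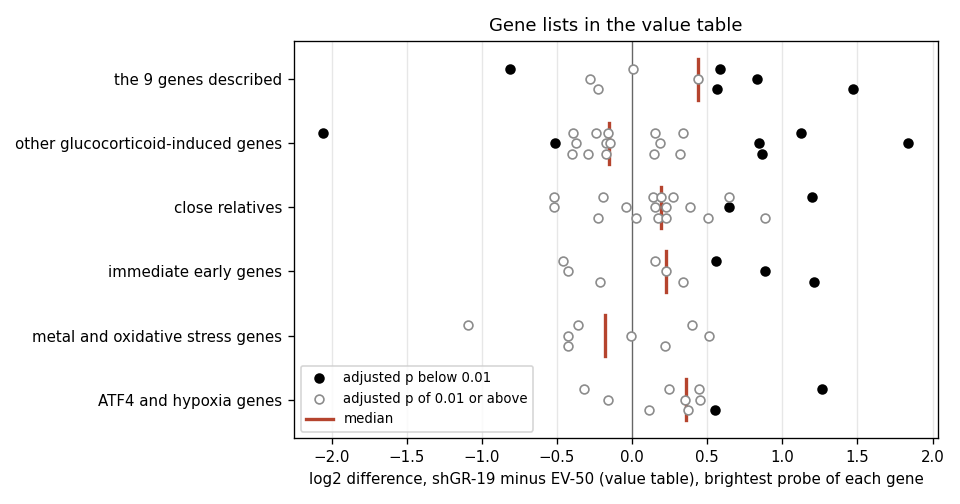
Value table differences, shGR-19 minus EV-50, on the log2 scale (horizontal axis) for the brightest tested probe of each gene, by gene list (vertical axis), with filled points for a limma adjusted p below 0.01 and a red line at the median of each list. The other glucocorticoid-induced genes range from -2.06 to 1.84, and filled points of the immediate early and of the Atf4 and hypoxia genes all lie to the right of 0.

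Markers of cell type were measured in the same arrays. Of 10 mammary epithelial markers, 9 were tested, with scanner log2 levels of 7.66 to 7.90 for Krt8 and 8.04 to 8.58 for Krt18 over the 4 arrays, Krt19 was too dim, and Krt14, a basal keratin, was called lower in the value table by -1.13. Of 6 fibroblast markers, 4 were not well above background (Col1a1, Col3a1, Dcn and Thy1), and both tested ones were called higher, Col1a2 by 3.27 and Pdgfra by 1.17. The median level of these 2 markers was -2.53 and -1.22 for EV-50 and -2.18 and 1.05 for shGR-19. Of 5 immune markers, Cd14 was called lower by -0.81, 3 did not pass, and Ptprc was not well above background, while 0 of 2 tested endothelial and 0 of 2 tested adipocyte markers were called. Of all tested probes, 5.53% were called higher in the value table and 6.04% lower. Only these 2 fibroblast markers could be set beside the 4 genes that were higher in shGR-19. Col1a2 was nearly level between the scanner arrays labelled replicate 1 (EV-50 0.68, shGR-19 0.64), unlike those labelled replicate 2 (EV-50 1.56, shGR-19 4.93). Pdgfra was higher in shGR-19 under both labels but dim, with levels between -5.74 and -2.83. The part of fibroblast markers in the result was not tested.

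Genes with the most similar scanner pattern were looked up for the 5 called genes among 11507 named genes, by the Euclidean distance of centred log2 levels over the 4 arrays. Mt2 had the least company: Dysf at a distance of 0.49, Mrgprf at 0.56 and Stk39 at 0.68 were nearest, and 1 gene lay within 0.5. Dusp1 had 11 genes within 0.5, led by Loxl4, Gtsf1 and Car12 at 0.21, 0.28 and 0.29. Sgk1 had 193, led by Gpd1l, Slc36a4 and Slamf9, Zfp36 had 1524, with Prodh and Pppde1 among the nearest, and Ddit4, which varied little, had 7097, led by Nsun6, Rtf1 and Pcgf3. With 4 arrays such distances are descriptions of these arrays.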

How the data were processed

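The authors hybridized Cy3-labelled cRNA made from 300 ng RNA per sample. They deposited the spot intensity of each array as Agilent Feature Extraction 10.5.1.1 gave it, background-subtracted but not scaled between arrays. A second deposited file, produced in GeneSpring, holds log2 values centred for each probe on its median over the columns. Here the processed signals were put on a log2 scale and the 75th percentile of their array was subtracted, after control and outlier spots had been removed. Repeated spots of a probe were averaged. A probe was tested when it was well above background on both arrays of either line (24439 of 41172). Both sources were fitted with limma 3.58.1 in R 4.3.3 (lmFit and eBayes, EV-50 against shGR-19, no covariate), adjusted with Benjamini-Hochberg over the kept probes, and called at an adjusted p below 0.01, the p of the methods, which name no adjustment. The fits were also run on simulated data with independent noise on each array. Those data lack the likeness between scanner arrays of the same replicate number, so the fits were not checked for it. An array was left out in turn, and background correction, scaling, filter, prior, replicate block and threshold were varied.

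The 10 genes and all gene lists were chosen from general knowledge with earlier results of these data known. Named are all 10 genes with every probe, Nr3c1, of each list up to 2 called genes with the largest increase and 2 with the largest decrease, and the 3 nearest genes of each called gene, of which 1 is not reported here. A few others are named outside this rule, as known readouts of GR (Fkbp5, Per1, Nfkbia), as markers of the cell type (Krt8, Krt18), or where the text says so. The brightest tested probe stands for a gene in a list. Probe positions are those of the array annotation (mm9), and exon or UTR positions and protein sequences were not analysed here. Promoter windows are from GRCm38.p6, and the builds were not combined. With 2 arrays per line, their number limits the precision of every value. The smallest scanner adjusted p of all probes was 0.93, and 37 probes had an unadjusted p below 0.01.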

Additional observations from a re-analysis of the deposited data

How the results depend on the processing

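In the value table, the 5 called probes of these genes became 0 without a filter on dim probes, 10 with an intensity trend and robust prior, 9 at an adjusted p below 0.05, 8 at an unadjusted p below 0.01 and 1 when more than 2-fold was also asked. Over all probes, 2828 became 43, 8041, 8921, 7316 and 1042 in the same order, and with probes well above background on all 4 arrays there were 6 calls of these genes and 4873 of all probes. Leaving out 1 column gave 0 to 0 calls of these genes and 0 to 0 of all probes. In the scanner files the 0 calls became 5 of these genes and 2828 of all probes only in the value table, and 37 of all probes at an unadjusted p below 0.01. The trend and robust prior brought Tsc22d3, Klf9 and Errfi1 past the threshold.

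With the replicate number as a block, the value table gave 0 calls of these genes and 0 of all probes. No label says that the numbers pair the samples, though arrays of the same number were next to each other in the order of scan positions. With 2 pairs the correlation of deviations was 0.652 in the scanner files and 0.109 in the value table.

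Without 1 array the scanner differences ranged from -1.31 to 0.61 for Sgk1, -0.49 to 1.25 for Tsc22d3, -0.84 to 1.74 for Dusp1, -0.50 to 0.29 for Klf9, -0.56 to 0.24 for Errfi1, -2.01 to 1.84 for Mt1 and -1.86 to 2.40 for Mt2, all with changed signs, while Zfp36 (0.17 to 0.81) and Ddit4 (0.10 to 0.19) kept theirs. With only the arrays labelled replicate 1, chosen after seeing the data, the sign turned for Sgk1 (0.012), Dusp1 (-0.19), Klf9 (0.012), Errfi1 (0.0094) and Mt2 (-0.038). Mt1 went from -0.084 in the scanner files to 0.0036 in the value table, to -0.0022 with its columns centred, and to between -0.037 and 0.045 without 1 column. Causes were not tested.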

Other observations

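Genes of the lists outside the metal response also separated by replicate label in the scanner files. This was common: 36.5% of all tested probes were higher and 28.1% lower on both arrays labelled replicate 1. Bnip3, Egr2 and Krt14 were singled out after their values were seen, and other listed genes separated in the same way. Bnip3, a mitophagy receptor induced by hypoxia, had log2 levels of 2.33 and 0.12 for EV-50 replicates 1 and 2 and of 2.50 and 0.53 for shGR-19 replicates 1 and 2. Egr2, an immediate early transcription factor, ran the other way with -3.36 and -1.21, then -3.28 and -1.41. Krt14 had 5.70 and 7.25, then 5.72 and 6.06. Its replicate 1 minus replicate 2 difference was -1.55 in EV-50 but only -0.34 in shGR-19. Between the arrays labelled replicate 2 the lines differed by -1.18.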
